A study of Mus musculus with 24 samples.

Results

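Loss of Srf in the caudal end of mouse embryos at E8.75 was examined on 8 bead arrays, 4 of control embryos and 4 of knockout embryos, out of 24 arrays in the series. The arrays were chosen by their stage and genotype labels. Earlier results of these data were known when these arrays and the gene lists were chosen. The other 16 arrays hold the same 2 genotypes at E8.5 and E9.0, and are used here only for normalization and to set the E8.75 effects beside them. Each sample is total RNA of a dissected unsegmented caudal end, from embryos labelled C57Bl/6. Knockouts carry the genotype label Srf(-/-), and come from a conditional allele named flex1 that is recombined by a Cre under control of T. Controls are titled wt but carry the genotype label Srf(+/-), so they are called controls. According to the labels, both parents were heterozygous for the conditional allele and T:cre/T:cre, so that the controls carried the Cre as well. T is active in the primitive streak and the mesoderm that leaves it, so cells of other origin in the dissected piece would keep the gene. The labels do not say whether an array holds 1 embryo or a pool, nor whether the replicates come from separate litters, and p-values therefore measure the spread between these samples only, which may be technical.

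The Srf product, serum response factor, binds a short AT-rich DNA sequence called the CArG box and regulates transcription from it. With its myocardin-related cofactors, which are held back by monomeric actin, it drives genes of the actin cytoskeleton. With ternary complex factors, which are phosphorylated by MAP kinases, it drives immediate early genes such as Egr1. In the mouse embryo Srf is needed for mesoderm to form. The unsegmented caudal end holds the tail bud and the presomitic mesoderm, from which somites are cut off, together with neural tube, hindgut and blood vessels.

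After background correction and quantile normalization, 11008 features (10135 named genes and 873 probes without a symbol) were tested with limma on the 8 arrays, as knockout minus control on the log2 scale. A feature was called where its Benjamini-Hochberg adjusted p was under 0.05, and errors of differences are SE. The median bead intensity of the 8 arrays lay between 145.1 and 173.3 and the number of probes detected between 11329 and 12406. The number of arrays limits the precision. Control replicate 4 stood apart from the rest. Its highest correlation with any other array was 0.972, against 0.986 or more for each of the other arrays, and its mean intensity was 616 against 759 to 935. The median SD within groups was 0.256 at E8.75, 0.184 at E8.5 and 0.164 at E9.0. By Xist and Kdm5d, the sex of the embryos did not look balanced either. The female transcript Xist lay above the Y-linked Kdm5d on control replicate 2 and on all 4 knockout arrays, while the other 3 control arrays had the reverse order. A further Y-linked gene, Uty, did not follow this split. Its signal was above background on all 8 arrays, with means of 5.67 in the controls and 5.41 in the knockouts, and control replicate 2 read 5.62. Xist read 4.65, 7.36, 4.4 and 4.53 in control replicates 1 to 4 and 7.37, 7.28, 7.28 and 7.49 in knockout replicates 1 to 4. Its difference was 2.12 ± 0.54 (adjusted p = 0.34). X-linked genes reached an unadjusted p of 0.05 in 26 of 343 cases (7.58%), and autosomal genes in 629 of 9785 (6.43%). Both groups held the labelled tissue. The mean of 13 tested markers of the unsegmented caudal end, among them Wnt3a and Cdx4, was 8.28 ± 0.21 in the control group and 8.20 ± 0.17 in the knockout group (SD over 4 arrays each), and none of the 13 reached an unadjusted p of 0.05.

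The signal of Srf at E8.75 was lower in the knockouts but did not pass the test. Controls 1 to 4 read 8.99, 9.89, 9.13 and 8.10, and knockouts 1 to 4 read 8.01, 8.51, 7.64 and 7.92. The groups overlapped, because control replicate 4 lay within the knockout range, and the other 3 controls lay above all knockouts. The difference was -1.005 ± 0.32 (unadjusted p = 0.0101, adjusted p = 0.532). In a fit of all 24 arrays with a shared spread the same difference passed (adjusted p = 0.0477), and it also passed with a weight for each array (-1.17, adjusted p = 0.00818). The difference did not pass in the other 19 of 21 alternatives, among them all 8 that left out 1 array. A second, dimmer probe of Srf was detected on none of the 8 arrays (difference -0.17). The sources used here do not place the probes relative to the recombined segment, and their signal may not measure the deletion. Of the cofactors and partners of Srf, 4 were tested and none reached an unadjusted p of 0.05. Only 1 of the 4 was above background on 4 or more of the 8 arrays, and 2 were so on none. Mrtfa, which encodes an actin-binding cofactor, was above background on no array and differed by 0.12 ± 0.13. Scai, a suppressor of that cofactor, was above background on no control array and differed by 0.29 ± 0.16.

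Across all features 5 genes were called. Egr1, Ier3 and Timd2 rose (3 of 11008, 0.0273%), and Fhl2 and Mocs1 fell (2 of 11008, 0.0182%). At an unadjusted p under 0.05 there were 443 higher features (4.02%) and 259 lower ones (2.35%). The arrays of the groups did not overlap for 223 higher features (2.03%) and 218 lower ones (1.98%). The median difference over all features was -0.0042. The number of calls moved when 1 array was left out. Leaving out control replicate 1 or 3, or knockout replicate 1, 3 or 4, left 0 calls (unadjusted p under 0.05 for 471 to 886 features). Leaving out control replicate 2 gave 28, knockout replicate 2 gave 78, and control replicate 4 gave 5. The differences themselves kept their direction under all alternatives, and ran from 0.99 to 1.53 for Egr1, from 1.08 to 1.81 for Ier3, from 0.68 to 1.63 for Timd2, from -1.53 to -0.87 for Fhl2 and from -1.30 to -1.04 for Mocs1.

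Egr1, an immediate early zinc finger transcription factor and a textbook target of SRF and its ternary complex partners, had the smallest p of all. It read 6.21, 6.59, 6.13 and 6.35 in the controls and 7.69, 7.56, 7.80 and 7.78 in the knockouts. The lowest knockout lay well above the highest control, and the difference was 1.39 ± 0.15, a 2.62-fold rise (adjusted p = 0.0129).

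Ier3, a stress-inducible early response gene that affects cell survival, read 7.12, 7.30, 6.46 and 6.84 in the controls and 8.55, 8.37, 8.09 and 8.70 in the knockouts. All knockouts lay above all controls, with a difference of 1.5 ± 0.20 or 2.82-fold (adjusted p = 0.0323).

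The remaining immediate early genes were divided in direction. Of 14 tested members of that list, 8 were positive and 6 negative, with a median of 0.02, and Egr1 and Ier3 were called. At an unadjusted p of 0.05 Egr1, Ier3 and Egr2 were higher and Srf itself, an immediate early gene too, was lower. Over all features 0.0273% were called higher, and 4.02% were higher and 2.35% lower at that level. Egr2, a relative of Egr1, was not above background on any control array and differed by 0.45 ± 0.18 (unadjusted p = 0.0283, adjusted p = 0.695). Fos and Klf4 stayed below the detection limit on all 8 arrays. Jun differed by 0.21 ± 0.26, Junb by -0.02 ± 0.21 and Dusp1, a MAP kinase phosphatase, by 0.01 ± 0.17.

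Timd2 encodes a cell surface receptor that takes up ferritin. It stayed below the detection limit on all 4 control arrays, which read 4.4, 4.54, 4.52 and 4.28, and was above background on all 4 knockout arrays, which read 5.72, 5.43, 5.98 and 5.97. The rise was therefore at least 1.65-fold (adjusted p = 0.0208), where the control level is set to the lowest detected signal of each array.

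Mocs1, which encodes an enzyme of molybdenum cofactor synthesis, fell in the knockouts. The controls read 9.49, 9.63, 9.69 and 9.11 and the knockouts 8.44, 8.37, 8.27 and 8.25. The groups were well separated, and the difference was -1.15 ± 0.16, a 2.21-fold fall (adjusted p = 0.0323). The gene lies on chromosome 17, as do Srf and Ier3. On that chromosome 46 of 494 genes (9.31%) reached an unadjusted p of 0.05, 27 of them higher and 19 lower, against 6.38% of all features.

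**Figure D1:**
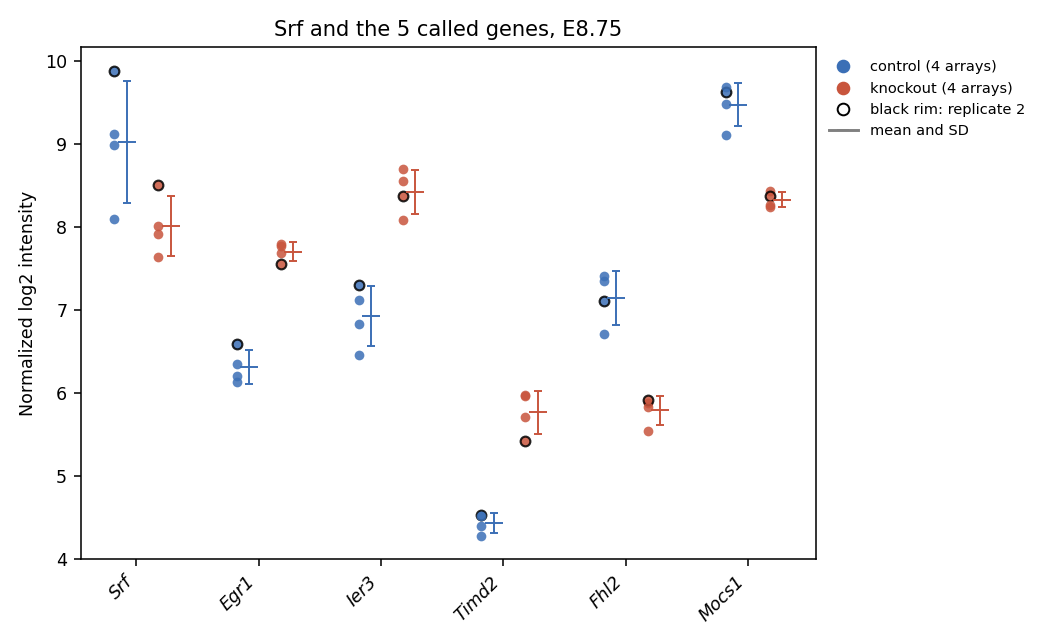
Normalized log2 intensity of Srf and of the 5 called genes on the 4 control and 4 knockout arrays of E8.75 (points), with the mean and SD of each group and replicate 2 rimmed in black. The groups are separate for each called gene, while the lowest Srf control, at 8.10, lies within the knockouts (7.64 to 8.51).

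Known SRF targets of the actin cytoskeleton had lower signals in the knockouts for 23 of 31 tested genes, out of 40 listed. Fhl2 was called lower, 10 were lower and 1 was higher at an unadjusted p of 0.05, and the arrays did not overlap for 8, all of them lower. Over all features 0.0182% were called lower, 2.35% were lower and 4.02% higher at that level, and 1.98% were lower without overlap. The median difference of the list was -0.20 against -0.0042 over all features. The mean over the list read 8.74, 8.80, 8.83 and 8.65 in the controls and 8.49, 8.51, 8.43 and 8.37 in the knockouts, so that every knockout lay below every control.

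Fhl2 encodes a LIM domain protein that binds focal adhesion proteins and transcription factors, SRF among them. It read 7.42, 7.11, 7.35 and 6.71 in the controls and 5.89, 5.92, 5.54 and 5.84 in the knockouts. The knockouts were close to each other and below every control, with a difference of -1.35 ± 0.18, a 2.55-fold fall (adjusted p = 0.0323).

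Cnn2 encodes calponin 2, which binds actin filaments. Its controls read 7.52, 7.28, 7.30 and 6.86 and its knockouts 5.87, 6.60, 5.22 and 5.79. The groups did not overlap, but the knockouts were spread, and the difference of -1.37 ± 0.26 did not pass (adjusted p = 0.151). A dimmer Cnn2 probe was above background on no array and differed by -0.10.

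Wdr1 encodes a cofactor of cofilin in the disassembly of actin filaments, and read 11.06, 11.42, 11.53 and 11.41 in the controls against 10.69, 10.74, 10.59 and 10.63 in the knockouts. The difference was -0.70 ± 0.14 (adjusted p = 0.182), and a second Wdr1 probe gave -0.90. Pdlim7, an adaptor between actin filaments and kinases, differed by -0.76 ± 0.17 (adjusted p = 0.219), and Tpm1, a tropomyosin that coats actin filaments, by -0.64 ± 0.15 (adjusted p = 0.233). Both were lower on every knockout than on any control.

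The actins themselves were less uniform. Actc1, cardiac alpha actin, was above background on 3 controls and on none of the knockouts, and was at least 1.43-fold lower (adjusted p = 0.348). Acta2, smooth muscle actin, read 10.29, 11.25, 11.50 and 10.68 in the controls and 10.41, 10.29, 9.64 and 9.49 in the knockouts, which overlapped, and differed by -0.98 ± 0.29 (adjusted p = 0.457). Actb, the main cytoplasmic actin, differed by -0.71 ± 0.23 without overlap (adjusted p = 0.517). Zyx, the focal adhesion protein zyxin, differed by -0.42 ± 0.16 without overlap (adjusted p = 0.639). Vcl, which encodes vinculin, a link between actin and adhesion sites, differed by -0.27 ± 0.15, and the actin cross-linker Actn1 by 0.22 ± 0.18. Vil1, villin, a bundling protein of microvilli in gut and visceral endoderm, was the 1 member with a higher signal at an unadjusted p of 0.05. It read 4.41, 5.23, 4.63 and 4.47 in the controls and 6.16, 4.73, 5.94 and 6.01 in the knockouts, a difference of 1.03 ± 0.30 (adjusted p = 0.457), with knockout replicate 2 inside the control range.

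Control replicate 4, which stood apart, had the lowest mean of the actin list among the controls. Without it, 12 of the 31 members were lower at an unadjusted p of 0.05 and 2 were called, and the median was -0.27. In the fit of all 24 arrays 6 members were called and with array weights 10, while 0 were called without control replicate 1 or 3 or without knockout replicate 1, 3 or 4. Among the knockouts, replicate 2 had the highest and replicate 3 the lowest signal of Srf, of Fhl2 and of Cnn2, a likeness picked out after the values were seen.

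**Figure D2:**
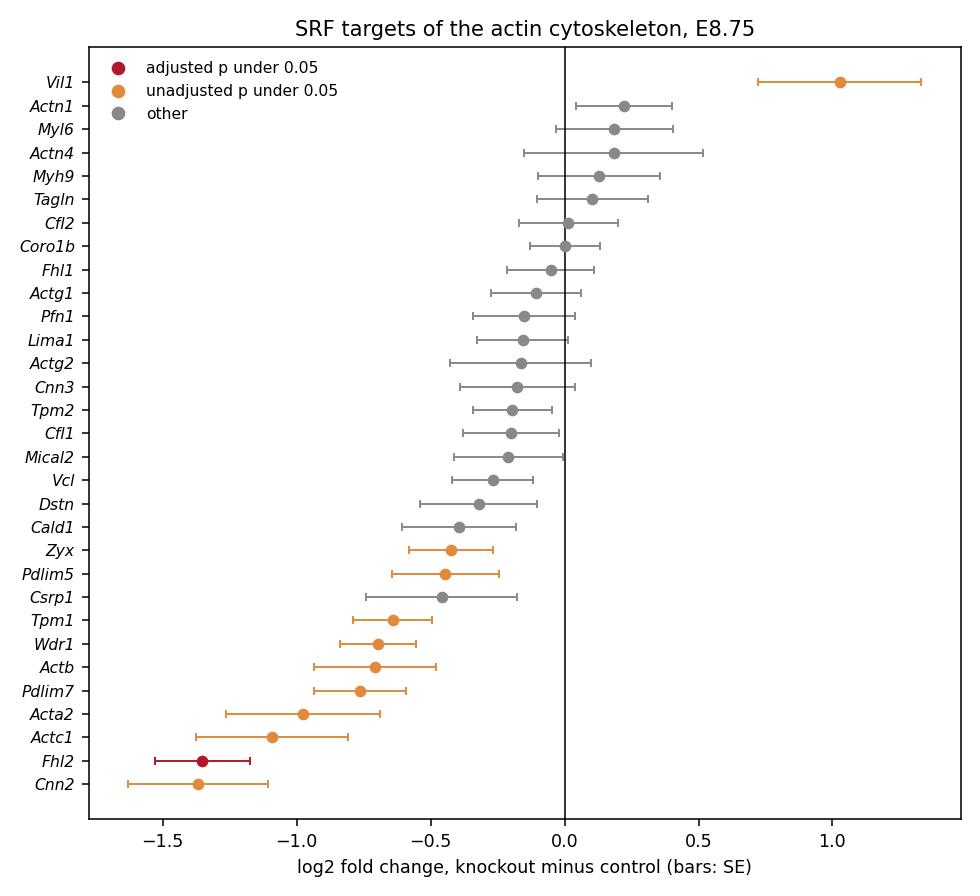
Log2 fold change of the 31 tested SRF targets of the actin cytoskeleton (points), knockout minus control at E8.75, with SE. Fhl2 has an adjusted p under 0.05, 9 further members are lower and Vil1 is higher at an unadjusted p under 0.05, and the rest lie between -0.46 and 0.22.

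The promoters of the changed actin genes were read for the CArG box, the sequence SRF binds, to show where it lies in the genes with the largest differences. Sequences are those of RefSeq on GRCm38.p6, 250 bases before to 50 after an annotated start. The box was searched by its textbook definition, which is its own reverse complement, so that both strands were covered at once. It was found in 2 promoters of Fhl2, in 1 each of Cnn2 and Actc1, and in that of Vil1. The 2 Fhl2 starts lie at chr1:43196712-43197011 and chr1:43163912-43164211 on the minus strand, with the box 96 and 31 bases upstream of the start. The Cnn2 window is chr10:79988350-79988649 on the plus strand with the box 56 bases upstream, the Actc1 window chr2:114052826-114053125 on the minus strand with the box 47 bases upstream, and the Vil1 window chr1:74409134-74409433 on the plus strand with the box 73 bases upstream. Each is printed 5′ to 3′ on the strand of the gene, with the box in capitals.
Fhl2 first start: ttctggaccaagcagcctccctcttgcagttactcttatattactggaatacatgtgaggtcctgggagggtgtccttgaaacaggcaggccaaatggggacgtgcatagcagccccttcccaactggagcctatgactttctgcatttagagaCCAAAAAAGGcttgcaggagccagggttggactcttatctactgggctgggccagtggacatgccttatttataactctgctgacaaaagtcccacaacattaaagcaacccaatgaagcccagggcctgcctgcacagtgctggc
Fhl2 second start: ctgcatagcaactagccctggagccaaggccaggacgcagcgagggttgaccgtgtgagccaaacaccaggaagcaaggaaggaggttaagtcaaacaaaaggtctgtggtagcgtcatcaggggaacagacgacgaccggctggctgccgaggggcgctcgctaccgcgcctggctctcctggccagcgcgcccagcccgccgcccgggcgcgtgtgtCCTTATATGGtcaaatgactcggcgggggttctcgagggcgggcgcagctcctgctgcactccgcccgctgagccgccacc
Cnn2: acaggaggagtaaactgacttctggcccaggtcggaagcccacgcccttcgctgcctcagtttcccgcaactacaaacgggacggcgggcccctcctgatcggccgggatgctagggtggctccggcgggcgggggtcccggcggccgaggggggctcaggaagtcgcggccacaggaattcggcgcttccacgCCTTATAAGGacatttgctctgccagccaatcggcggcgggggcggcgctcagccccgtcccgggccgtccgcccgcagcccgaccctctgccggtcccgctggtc
Actc1: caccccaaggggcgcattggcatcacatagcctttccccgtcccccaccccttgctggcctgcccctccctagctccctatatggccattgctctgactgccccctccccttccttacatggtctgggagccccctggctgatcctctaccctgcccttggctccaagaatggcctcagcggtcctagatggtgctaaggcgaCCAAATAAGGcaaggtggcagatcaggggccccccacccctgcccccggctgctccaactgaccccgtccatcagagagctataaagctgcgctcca
Vil1: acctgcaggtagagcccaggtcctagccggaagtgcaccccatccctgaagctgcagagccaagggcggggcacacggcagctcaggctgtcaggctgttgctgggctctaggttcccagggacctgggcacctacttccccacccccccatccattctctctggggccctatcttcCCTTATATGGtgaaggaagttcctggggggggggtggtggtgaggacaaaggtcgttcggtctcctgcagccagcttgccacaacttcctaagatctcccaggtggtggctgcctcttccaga
In these windows no box was found for Wdr1, Pdlim7, Tpm1, Acta2, Zyx and Pdlim5, nor for the called genes Timd2, Mocs1 and Ier3, which says only that these letters are not in this window. Egr1 and Actb were not searched. Of the 27 tested actin genes with a promoter in the table, 9 held a box (33.3%), against 141 of 8197 tested genes (1.72%) and 535 of all 32851 promoter windows (1.63%). Such genes were listed because they are known SRF targets, so this share describes the list. The share was the same in members lower at an unadjusted p of 0.05 (3 of 9, 33.3%) and in the other members (6 of 18, 33.3%).

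Beyond actin, the lists next to SRF in cell mechanics were not alike. Targets of YAP and TAZ, cofactors that also respond to actin tension, were lower for all 7 tested members, with a median of -0.39. Of these 2 were lower at an unadjusted p of 0.05, against 2.35% of all features. The list mean read 6.69, 6.19, 6.44 and 6.49 in the controls and 5.93, 5.97, 6.13 and 5.97 in the knockouts, so that every knockout lay below every control. The median ran from -0.45 to -0.14 under the alternatives. Edn1, which encodes the vasoconstrictor endothelin, read 7.56, 6.11, 6.46 and 6.08 in the controls and 5.65, 5.06, 5.60 and 4.76 in the knockouts. The groups did not overlap, and the difference was -1.28 ± 0.32 (adjusted p = 0.331). The matricellular genes Ccn1 and Ccn2 differed by -0.39 ± 0.17 (adjusted p = 0.779) and -0.50 ± 0.24 (adjusted p = 0.808). A second probe of Ccn1 gave -0.07. None of 14 focal adhesion and integrin genes and none of 10 genes of fibronectin, laminins and basement membrane reached an unadjusted p of 0.05. Fermt2, kindlin 2, differed by -0.31 ± 0.17 and Pxn, paxillin, by 0.24 ± 0.26.

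Among the 12 lowest genes with separate groups were several with no known place in the actin cytoskeleton. Sik1, a salt-inducible kinase, read 6.00, 5.50, 5.68 and 6.26 in the controls and was not above background on any knockout array, which makes it at least 1.86-fold lower (adjusted p = 0.0826). Zfp101, a zinc finger gene, read 8.01, 7.52, 7.48 and 8.20 in the controls and 6.57, 6.63, 6.48 and 6.93 in the knockouts, a difference of -1.15 ± 0.19 (adjusted p = 0.107). Tlcd4 differed by -1.10 ± 0.23 (adjusted p = 0.182) and the zinc finger gene Zfp52 by -0.81 ± 0.22 (adjusted p = 0.391). Of these 12 lowest genes 5 lie on chromosome 17 with Srf, namely Mocs1, Trim10, Zfp101, Sik1 and Zfp52. That chromosome holds 494 of the 10135 named genes tested.

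The 6 highest differences among named genes all belonged to a list for endoderm of the visceral yolk sac, an extraembryonic epithelium that makes serum proteins and takes up nutrients before the liver and gut do. Of 30 listed, 24 were tested and 20 were higher at an unadjusted p of 0.05, with none lower, but 0 were called in limma. The arrays did not overlap for 8 of them, all higher, and the median difference was 1.38. Over all features 4.02% were higher at that level, and 2.03% were higher without overlap. The mean over the list read 5.88, 6.36, 5.76 and 5.94 in the controls and 8.19, 6.49, 8.05 and 7.89 in the knockouts. Knockouts 1, 3 and 4 lay far above all controls, and knockout replicate 2 lay just above the highest control, replicate 2.

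Apoa1, the main protein of high density lipoprotein, read 5.68, 8.8, 6.62 and 7.31 in the controls and 12.43, 9.19, 11.97 and 11.89 in the knockouts, and differed by 4.28 ± 0.73 (adjusted p = 0.117). Ttr, transthyretin, which carries thyroid hormone and retinol binding protein, read 6.95, 9.29, 6.73 and 7.90 in the controls and 12.19, 9.91, 11.90 and 12.15 in the knockouts, a difference of 3.82 ± 0.60 (adjusted p = 0.0826). Both genes put replicate 2 highest among the controls and lowest among the knockouts.

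Spp2, a secreted phosphoprotein, was above background on 1 control and on all knockouts, and differed by 3.73 ± 0.59 (adjusted p = 0.0826). Amn, the amnionless subunit of the receptor for vitamin B12, differed by 3.27 ± 0.56 (adjusted p = 0.117), and the apolipoprotein gene Apom by 2.98 ± 0.52 (adjusted p = 0.122). The list's liver-type factor Hnf4a, which drives many of these genes, read 5.48, 5.46, 5.45 and 4.89 in the controls and 6.86, 5.16, 6.54 and 6.71 in the knockouts (difference 1.00 ± 0.33, adjusted p = 0.542). Afp, alpha-fetoprotein, and Rbp4, retinol binding protein, were not above background on any control and were at least 1.52-fold and 1.58-fold higher. Not every member was higher. Lrp2, the endocytic receptor megalin, differed by -0.22 ± 0.29, and Ttpa, which transfers vitamin E, was above background on none of the 8 arrays.

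Knockout replicate 2 was the lowest knockout for each of the 12 highest genes with separate groups, and control replicate 2 the highest control for all of them but Mt1. Mt1, the zinc-binding metallothionein, read 9.80, 9.08, 8.82 and 7.83 in the controls and 12.18, 10, 12.35 and 11.69 in the knockouts, with a difference of 2.67 ± 0.51 (adjusted p = 0.151). The sulfate transporter Slc13a4 differed by 2.79 ± 0.54 (adjusted p = 0.155), the galectin Lgals2 by 2.34 ± 0.42 (adjusted p = 0.122), and Fmr1nb by 2.08 ± 0.41 (adjusted p = 0.159). The apolipoprotein genes Apoc1 and Apoe differed by 2.30 ± 0.41 (adjusted p = 0.122) and 1.61 ± 0.31 (adjusted p = 0.155), and the trypsin inhibitor gene Spink1 by 2.07 ± 0.40 (adjusted p = 0.151). The zinc importer Slc39a4 differed by 1.08 ± 0.22 (adjusted p = 0.182).

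Genes of lysosomes and endocytosis, which absorptive endoderm uses heavily, had a median of 0.29, with 6 of 16 higher at an unadjusted p of 0.05 and none lower. Over all features 4.02% were higher at that level. Amn and Dab2, an endocytic adaptor, stand in the yolk sac list as well. The cathepsin gene Ctsh read 8.52, 8.45, 8.22 and 8.21 in the controls and 10.20, 8.38, 10.09 and 9.90 in the knockouts (difference 1.30 ± 0.34, adjusted p = 0.355), and Ctsb differed by 0.68 ± 0.21 (adjusted p = 0.466). For Ctsh, knockout replicate 2 lay within the control range and the other 3 knockouts well above it.

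Replicate 2 of the knockouts was the lowest of the 4 for 22 of the 24 tested yolk sac genes, and lay within the control range for 13 of them. Over the 443 features higher at an unadjusted p of 0.05 it was the lowest knockout for 231, and over the 259 lower features for 80. Without it, 78 features were called, 74 of them higher, and 17 of these belong to the yolk sac list, whose median became 1.75. Without control replicate 2, which had the highest list mean of the controls, 7 members were called and the median was 1.32. Knockout replicates 2 and 3 had the same Xist level (7.28 each). With the Xist level as a covariate 9 of the 24 were higher at an unadjusted p of 0.05, with a median of 1.16 and 0 called. In a fit of all 24 arrays 6 members were called, and with array weights 18. In RNA of a dissected piece, more cells of a type and more RNA per cell cannot be told apart. The part that the amount of yolk sac tissue in a sample has in these differences was not tested.

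**Figure D3:**
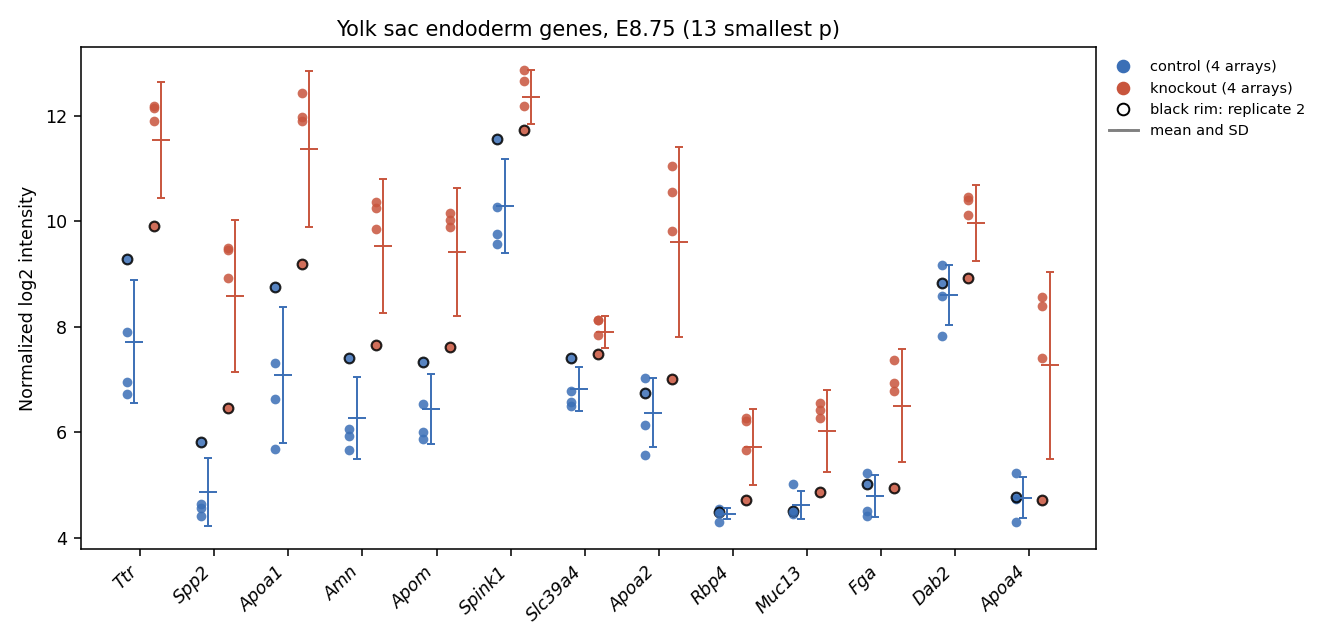
Normalized log2 intensity of the 13 yolk sac endoderm genes with the smallest p, on the 4 control and 4 knockout arrays of E8.75 (points), with the mean and SD of each group. Replicate 2, rimmed in black, is the lowest knockout throughout. For Ttr it reads 9.91 where the other knockouts read 11.90 to 12.19, and control replicate 2 reads 9.29.

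Markers of parietal endoderm and trophoblast, the other extraembryonic layers, were higher for all 8 tested genes, with a median of 0.43. At an unadjusted p of 0.05, 4 of the 8 were higher, against 4.02% of all features. These 4, namely Rhox5, Rhox6, Plac1 and Rhox9, are X-linked. Rhox5, a homeobox gene of placenta and gonads, read 9.12, 8.73, 8.77 and 8.18 in the controls and 10.53, 9.22, 10.16 and 10.39 in the knockouts (difference 1.37 ± 0.29, adjusted p = 0.182). Plac1, a gene expressed in trophoblast, differed by 0.56 ± 0.20 without overlap (adjusted p = 0.616). Hand1 and Ascl2, autosomal trophoblast genes, differed by 0.06 ± 0.16 and 0.16 ± 0.21. With the Xist level as a covariate the Rhox5 log2 fold change at E8.75 was 1.29 (adjusted p = 0.639) and the Plac1 log2 fold change at E8.75 was 0.63 (adjusted p = 0.783).

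Primitive erythroid genes had lower signals in most members, by -0.96 at the median. Of 17 tested, 8 were lower at an unadjusted p of 0.05 and none higher, the arrays did not overlap for 5, and 0 were called in limma. Over all features 2.35% were lower at that level, and 1.98% were lower without overlap. The list mean read 8.26, 7.57, 8 and 7.79 in the controls and 7.04, 7.04, 7.94 and 6.08 in the knockouts, so that knockout replicate 3 lay among the controls and replicate 4 lowest. Alas2, the first enzyme of haem synthesis in red cells, read 7.87, 7.18, 7.55 and 7.36 in the controls and 6.03, 5.81, 7.18 and 4.68 in the knockouts. The groups touched but did not overlap (difference -1.56 ± 0.41, adjusted p = 0.355).

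Klf1, the transcription factor of red cell genes, differed by -0.96 ± 0.24 (adjusted p = 0.315), and Trim10, needed for late red cell maturation, by -1.26 ± 0.35 (adjusted p = 0.41). Slc4a1, which encodes the anion exchanger of red cells, had the lowest value of the list at -1.76 ± 0.66 (adjusted p = 0.669). The embryonic globin Hbb-bh1 read 14.15, 13.08, 13.74 and 13.16 in the controls and 12.22, 12.59, 13.91 and 10.66 in the knockouts, which overlapped, and differed by -1.19 ± 0.54 (adjusted p = 0.783). With the Xist level as a covariate the list median was -0.63 and none of the 17 reached an unadjusted p of 0.05, and without knockout replicate 4 the median was -0.63 as well, with 8 lower. In the fit of all 24 arrays 2 were lower at that level. Without knockout replicate 3 the median was -1.21 with 11 lower, and with array weights 5 were called.

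**Figure D4:**
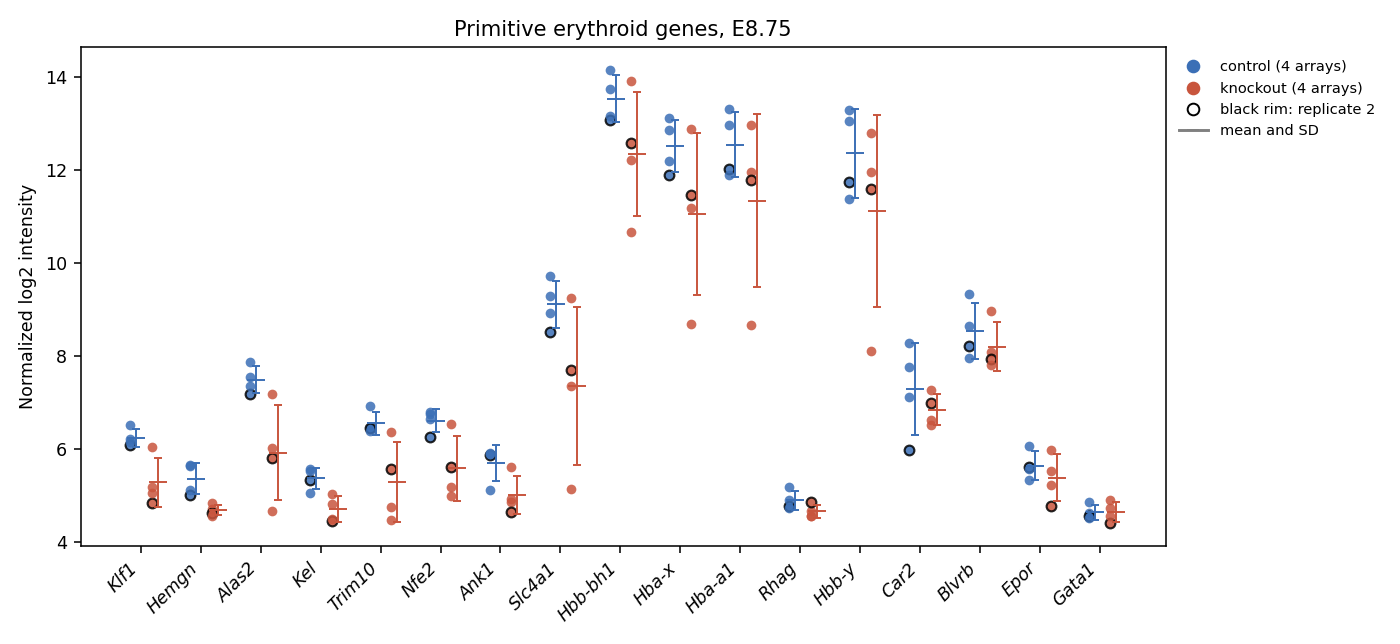
Normalized log2 intensity of the 17 tested primitive erythroid genes on the 4 control and 4 knockout arrays of E8.75 (points), with the mean and SD of each group and replicate 2 rimmed in black. One knockout, replicate 3, lies with the controls for most genes, and replicate 4 falls to 4.68 for Alas2 and 8.10 for Hbb-y.

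Mrc1, the mannose receptor of macrophages, was above background on 1 control and on all knockouts. It read 4.57, 5.05, 4.77 and 4.98 in the controls and 5.84, 5.37, 5.98 and 5.95 in the knockouts, without overlap (difference 0.94 ± 0.18, adjusted p = 0.143). Timd4, a phosphatidylserine receptor of macrophages, differed by 0.38 ± 0.15 (adjusted p = 0.691). Lyve1, a hyaluronan receptor of lymphatic vessels and some macrophages, differed by 0.92 ± 0.26 (adjusted p = 0.41). Neither Timd4 nor Lyve1 was above background on any control array, and Lyve1 was at least 1.28-fold higher. The other 3 tested macrophage and platelet genes, Aif1, Fcer1g and Itga2b, lay between 0.14 and 0.17, and Aif1 was above background on no array. Of 17 endothelial genes Lyve1 alone reached an unadjusted p of 0.05, and the median was 0.14.

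None of the genes that mark the tissue itself was called. Of 19 tail bud and primitive streak genes 15 were negative and 4 positive, and the median was -0.14 against -0.0042 over all features. At an unadjusted p of 0.05, 2 of the 19 were lower, against 2.35% of all features. Mixl1, a homeobox gene of the primitive streak, differed by -0.48 ± 0.17 (adjusted p = 0.61) and Fgf17, a tail bud growth factor, by -0.47 ± 0.20 (adjusted p = 0.739). A second probe of each, detected on all 8 arrays, gave -0.23 for Mixl1 and -0.54 for Fgf17. Fgf8 differed by -0.31 ± 0.19 and Wnt3a by -0.28 ± 0.21. Of 16 genes of the presomitic mesoderm and segmentation clock 1 was lower at that level, the WNT inhibitor Dkk1, which read 6.68, 6.85, 6.77 and 7.19 in the controls and 6.03, 6.24, 6.51 and 6.55 in the knockouts (difference -0.54 ± 0.17, adjusted p = 0.48). Of 4 tested somite genes Foxc1, a forkhead factor of paraxial mesoderm, differed by -0.46 ± 0.17 without overlap (adjusted p = 0.639), and Tcf15, a factor of somite epithelia, by -0.03 ± 0.20.

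Of 21 Hox genes of groups 1 to 8 only Hoxb3 reached an unadjusted p of 0.05 (-0.36 ± 0.16, adjusted p = 0.767), where a second probe detected on all 8 arrays gave 0.07, and of 13 of groups 9 to 13 none did. Cdh1, E-cadherin, differed by 0.42 ± 0.18 (adjusted p = 0.733) and Cdh2, N-cadherin, by -0.47 ± 0.23 (adjusted p = 0.812). The keratin gene Krt19 differed by 0.39 ± 0.17 (adjusted p = 0.766). Of 9 notochord and node genes Nodal was higher at an unadjusted p of 0.05 (0.32 ± 0.14, adjusted p = 0.779), and of 10 gut endoderm genes Foxa3 was (0.34 ± 0.15, adjusted p = 0.779). Nodal was above background on none of the 8 arrays, so its difference lies within the background signal. Of 8 neural tube, 11 lateral plate and allantois, 7 cardiomyocyte, and 8 neural crest and surface ectoderm genes none reached it. Of 4 anterior head genes Egr2, listed there for the hindbrain too, was the 1 that did.

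No member of the stress and growth lists was called. Of 23 hypoxia and glycolysis genes 13 were positive and 10 negative, and the median was 0.12. At an unadjusted p of 0.05, 3 of the 23 were higher and none lower, against 4.02% of all features higher and 2.35% lower. Bhlhe40, a hypoxia-inducible transcription factor, read 4.27, 4.65, 4.54 and 5.38 in the controls and 5.76, 5.15, 5.93 and 6.16 in the knockouts, where the groups overlapped (difference 1.04 ± 0.27, adjusted p = 0.34). The aldolase gene Aldoc differed by 0.65 ± 0.20 (adjusted p = 0.478) and Ndrg1 by 0.52 ± 0.20 (adjusted p = 0.691). Ddit4, an inhibitor of mTOR signalling that hypoxia and p53 induce, differed by 0.81 ± 0.22 (adjusted p = 0.396) and was the 1 of 13 p53 and apoptosis genes at that level. None of 16 proliferation, 16 amino acid and unfolded protein response, or 15 cholesterol and fatty acid synthesis genes reached it.

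The E8.75 effects were set beside those of the other stages, whose arrays they do not share. Of the 443 features higher at E8.75, 71.8% were also positive at E8.5 and 70.0% at E9.0, where 49.6% and 50.8% of all features were positive. Of the 259 lower ones, 65.3% and 77.6% were negative, against 50.4% and 49.2% of all features. Across the 11008 features, which are not independent replicates and were normalized together, the effects correlated with r = 0.24 for E8.5 and r = 0.31 for E9.0.

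Fhl2 and Mocs1 were lower without overlap at all 3 stages. Fhl2 differed by -0.87 ± 0.15 at E8.5 (adjusted p = 0.0168 by limma) and -1.56 ± 0.13 at E9.0 (adjusted p = 3.22e-08). Mocs1 differed by -0.83 ± 0.11 at E8.5 (adjusted p = 0.000806) and -1.49 ± 0.10 at E9.0 (adjusted p = 2.92e-10). Egr1 was higher without overlap at all 3 stages, by 0.80 ± 0.19 at E8.5 (adjusted p = 0.307) and 1.58 ± 0.16 at E9.0 (adjusted p = 3.99e-07). Ier3 differed by 0.83 ± 0.42 at E8.5 (adjusted p = 1) and 2.52 ± 0.37 at E9.0 (adjusted p = 3.5e-05). Timd2, by contrast, differed by 0.22 ± 0.21 and -0.13 ± 0.19.

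List means were compared across stages after joint normalization of arrays of unequal brightness. Median intensities were 36.8 to 45.9 at E8.5 and 36.8 to 38.9 at E9.0, against 145.1 to 173.3 at E8.75, so that level differences between stages cannot be told apart from brightness. The actin list was lower in the knockouts at each stage, at 8.58 ± 0.02 against 8.80 ± 0.06 in the controls of E8.5, and at 8.36 ± 0.05 against 8.7 ± 0.08 in those of E9.0 (SD over 4 arrays each). The yolk sac list was at 7.80 ± 0.58 and 7.82 ± 0.82 at E8.5, and at 5.17 ± 0.06 and 5.22 ± 0.12 at E9.0. At E8.75 the controls, at 5.99 ± 0.26, lay between those levels, and the knockouts, at 7.65 ± 0.79, lay within the range of the E8.5 arrays (6.95 to 8.88) on 3 of 4 arrays. The erythroid list was at 6.80 ± 1.48 and 6.02 ± 0.74 at E8.5, 7.91 ± 0.30 and 7.03 ± 0.76 at E8.75, and 9.71 ± 0.79 and 6.88 ± 0.97 at E9.0, each for controls and then knockouts.

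A test of the E8.75 effect against the mean effect of both other stages, fitted on all 24 arrays with weights by stage, called 1 feature of 11008 (0.00908%), Mrc1, with a difference of effects of 1.08 ± 0.16 (adjusted p = 0.00699 by limma). Its own effects were -0.23 at E8.5 and -0.05 at E9.0. The Mrc1 difference between stages was not called without control replicate 3 (adjusted p = 0.0537), without knockout replicate 1 (adjusted p = 0.0615) or 3 (adjusted p = 0.0829), or with the replicate number as a block (adjusted p = 0.198). Ttr and Apoa1, with effects near 0 at the other stages (-0.01 and 0.17, and 0.15 and 0.39), did not pass, with differences of effects of 3.74 ± 0.76 (adjusted p = 0.142) and 4.01 ± 0.85 (adjusted p = 0.168).

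**Figure D5:**
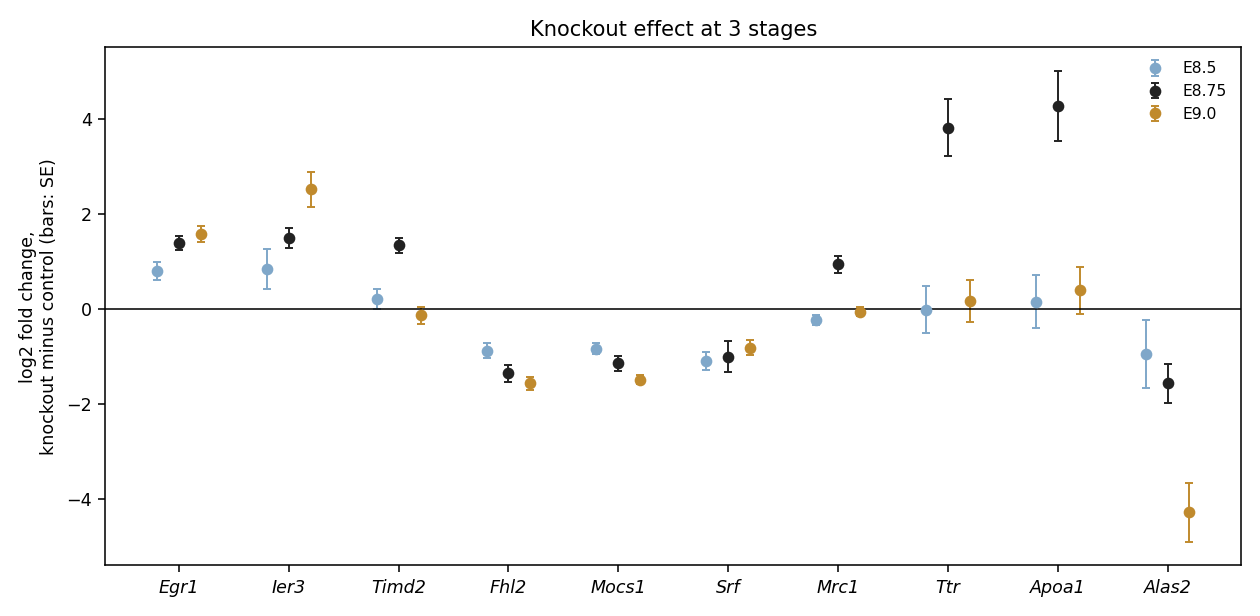
Log2 fold change (knockout minus control) with SE for 10 named genes at each of the 3 stages. The called genes other than Timd2 keep their sign at all 3 stages, Ttr and Apoa1 are high at E8.75 alone (3.82 and 4.28), and Alas2 is lowest at E9.0 (-4.28).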

How the data were processed

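Total RNA was hybridised to 24 Illumina bead arrays, of which the 8 of E8.75 were compared. The authors deposited a non-normalized table holding, per the file headers, an intensity and a detection p-value for every probe on every array, and a normalized intensity table, used as an alternative. The software named, per the submitters' processing notes, is GenomeStudio, with no version. Intensities of all 24 arrays were background corrected (normexp from detection p, offset 16), then quantile normalized and log2 transformed (neqc, limma 3.58.1, R 4.3.3). Probes with detection p under 0.05 on at least 4 of 24 arrays were kept, and the brightest probe stood for each gene. The 8 arrays were fitted in limma (lmFit, eBayes, prior degrees of freedom 4.99), with Benjamini-Hochberg adjustment over 11008 features. Effects at E8.5 and E9.0 and stage differences came from a fit of all 24 arrays with array weights per stage. Named genes were Srf, all called genes, the 12 highest and 12 lowest with separate groups, and the members of smallest p of each of 34 lists; further members were named for their known role or after their values were seen. A group with no array above background gives a bound. The arrays compared and the lists were chosen with earlier results of these data known. The fits were tested on simulated data.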

Additional observations from a re-analysis of the deposited data

Results flagged for a closer look

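Among 190 groups of 4 arrays examined, 13 held an array far from the other 3 by Dixon's criterion, where chance gives about 1 in 20. Knockout replicate 2 was such an array for Apoa1 (9.19 against 11.89 to 12.43), Ttr (9.91 against 11.90 to 12.19), Apom (7.62 against 9.89 to 10.15), Ctsh (8.38 against 9.90 to 10.20) and Ctsb (9.09 against 9.90 to 10.03). The same array was low for the mean of the lysosome and endocytosis list (8.30 against 8.92 to 9.01). Control replicate 2 was high for Spp2 (5.82 against 4.42 to 4.63) and for Xist (7.36 against 4.4 to 4.65). Control replicate 3 was high for Trim10 (6.93 against 6.39 to 6.45). Knockout replicate 4 was low for Foxc1 (6.66 against 7.17 to 7.18), Hoxb3 (6.35 against 6.85 to 6.90) and the mean of the fibronectin, laminin and basement membrane list (9.18 against 9.42 to 9.47). Knockout replicate 3 was low for the mean of the epithelial list (7.31 against 7.43 to 7.44).

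Opposite directions between stages were looked for only in the 61 named genes with an unadjusted p under 0.05 at E8.75. For 6 of them there were separate groups at E8.75 and separate groups in the opposite direction at another stage. The difference was not tested pair by pair, and the share over all features is not given here. At E9.0 the log2 difference was -0.13 for Timd2, -1.32 for Rhox5, -0.31 for Rhox6, -0.78 for Plac1 and 0.29 for Hoxb3, and at E8.5 it was 0.25 for Zfp52. Mrc1 was the gene whose effect at E8.75 differed by a test from the mean effect of the other stages, by 1.08.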

How the results depend on the processing

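No called gene changed direction under any alternative. Several list medians near 0 changed sign: the lowest value was -0.12 for immediate early genes, -0.27 for focal adhesion, -0.03 for gut endoderm and -0.03 for hypoxia, and the highest was 0.06 for neural tube. The count of called features was 5 with the 8 arrays normalized alone, with a filter on 4 of the 8 arrays and with an intensity trend and robust priors, and 4 for probes detected on all 8 arrays. It was 1 without a filter on dim probes, 2 with an offset of 50, 3 without background correction, 3 with the deposited normalized table and 2 with all probes tested singly. It was 58 in a fit of all 24 arrays (4 of the 5 shared) and 436 with array weights, which ran from 0.174 for control replicate 4 to 5.41 for control replicate 3. Without 1 array it ran from 0 to 78. With the Xist level as a covariate it was 5, none of them the same: Ppp1ca, Eif5a, Bcl2l1, Igfbp2 and 1 unnamed probe, named after their values were seen. With the replicate number as a block it was 0. Over all features, deviations of same-numbered arrays correlated at 0.09, -0.03, 0.02 and 0.08. Such low values over all features cannot exclude that same-numbered samples share a litter or a batch. The difference of Srf at E8.75 passed with array weights (-1.17) and in the fit of all 24 arrays (-1.005), and not in the other 19 alternatives. The median of the actin list was -0.30 with the Xist covariate and ran from -0.28 to -0.20 without 1 array. The count of stage differences was 6 without weights, 2 against E8.5 alone, 21 against E9.0 alone, 0 with the replicate block within stage, and 0 to 9 without 1 array. The cause of these shifts was not tested. Sex, as read from Xist and Kdm5d, and genotype are nearly confounded, and brightness of the arrays and stage cannot be told apart. Signals near background understate differences.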
